A study of Mus musculus with 8 samples.

Results

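The mRNA levels of 7 mouse genes of cholesterol synthesis, uptake and excretion were compared between liver, small intestine, kidney and lung. The genes were the rows of the deposited table whose symbols were Hmgcs1, Sqle, Npc1l1, Abcg5, Abcg8, Soat2 and Lcat, 7 of 52195 genes, and all 7 were found. Kidney held the highest level of the synthesis genes Hmgcs1 and Sqle, small intestine that of Npc1l1, Abcg5, Abcg8 and Soat2, and liver that of Lcat. No value was used to choose them, but they were picked with earlier results of the same libraries known.

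Each tissue was represented by 2 libraries, 8 in all, made from whole tissue of male mice aged 6 to 10 weeks, of the strain C57BL/6 by the labels and C57BL/6J by the methods. No genotype beside the strain and no treatment is given for any group, and the labels of the groups differ in tissue alone. The tissues were cut out whole, rinsed in saline and lysed for RNA, so every library holds the mixture of cell types of its tissue. By the methods, the replicate libraries of a tissue came from different mice, and the 4 tissues were taken from each mouse. Libraries of different tissues can therefore share a mouse, and since which number belongs to which mouse is not stated, the tests treat the 8 libraries as independent.

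A mammalian cell obtains cholesterol by making it from acetyl-CoA or by taking it up. The synthesis genes are activated by the transcription factor SREBP-2 when sterols in the endoplasmic reticulum membrane are low. Cholesterol from the diet and from bile enters enterocytes through NPC1L1, is esterified by ACAT2, the product of Soat2, and leaves in chylomicrons, while ABCG5 and ABCG8, which work as a pair, pump sterols back into the gut lumen and, in the hepatocyte, into bile. LCAT is secreted by the liver and esterifies cholesterol on high-density lipoproteins in plasma.

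Levels are in FPKM, the number of fragments on a gene scaled by its exon length and by library size, which allows levels of different genes to be set side by side. Between 9164187 and 21444675 reads were counted on genes per library. A difference between tissues is the difference of the means of log2(FPKM + 1), fitted with limma in 1 model of the 8 libraries over the 16328 genes that reached 1 FPKM in 2 libraries or more. A gene was called when its Benjamini-Hochberg adjusted p was under 0.05 and its difference over 1 on this log2 scale, which understates the change of genes with a low FPKM. In the moderated F test over the tissues, 7 of 7 genes were below 0.05, as were 90.9% of all genes tested, so the F test says nothing particular about them. Hmgcs1 and Sqle were above 1 FPKM in every library, while the others passed the filter on low values only through the tissues in which they are high, Npc1l1 through small intestine alone.

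The share of mitochondrial transcripts differed between tissues, from 22.8% in lung replicate 2 to 68.4% in kidney replicate 2. The median difference of all tested genes was -1.13 on the log2 scale for liver minus lung and -0.81 for kidney minus lung. Values were therefore also divided by a median-of-ratios size factor, computed over 15137 genes above 0 in every library, which ranged from 0.552 in liver replicate 1 to 1.90 in lung replicate 2. After this scaling the median difference lay between -0.06 and 0.01 in all 6 comparisons. Where the scaling changed a call or a direction of one of the 7 genes, its value stands beside the deposited one.

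Each tissue showed the genes that define it. All 6 hepatocyte markers were highest in liver, all 6 enterocyte markers in small intestine and all 5 proximal tubule markers in kidney, and 4 of 5 alveolar type 2 markers in lung, the exception being Abca3, with a higher mean in kidney (21.0 and 8.81 FPKM) than in lung (12.4 and 13.5 FPKM) that rested on kidney replicate 1. All 6 pancreatic acinar markers were above 1 FPKM in both small intestine libraries, with a summed FPKM of 1807 and 816 against at most 3.82 in any other library. The adrenal cortex marker Cyp11b1 was listed at 0 in all 8 libraries, and in kidney Cyp11a1 and Cyp21a1 were too. The other adrenal markers were not all at 0 in kidney, where Star was 0.805 and 0.253 FPKM and Hsd3b1 0.0251 and 0. Star was higher in lung (1.79 and 1.92 FPKM) and small intestine (1.01 and 1.05 FPKM).

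**Figure D1:**
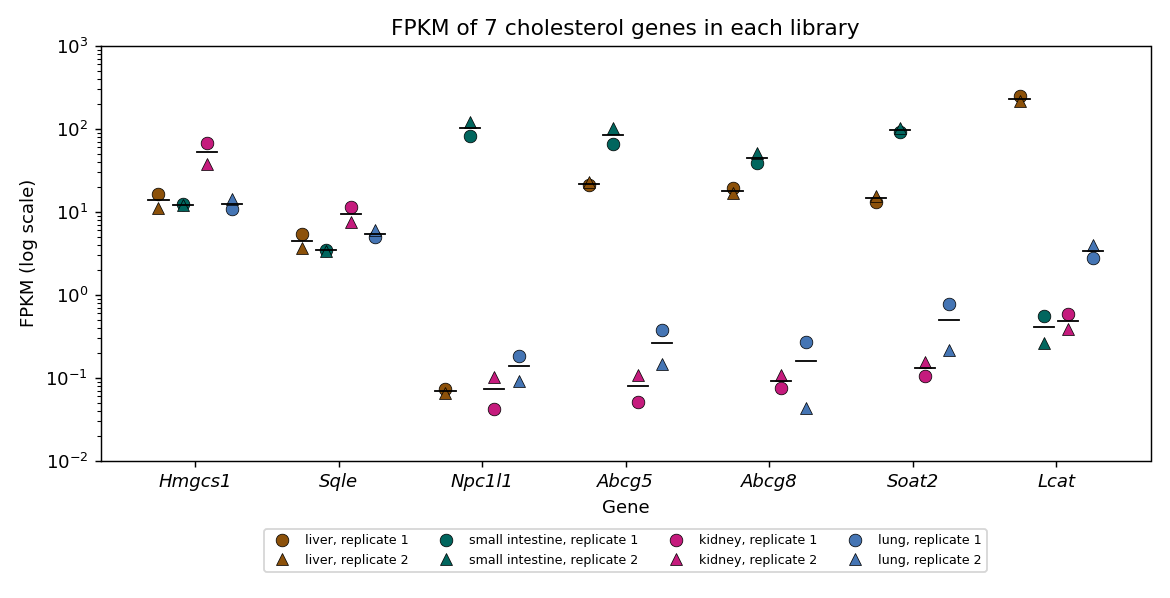
FPKM of the 7 genes in each of the 8 libraries on a log axis; circles are replicate 1, triangles replicate 2, and the short black lines are tissue means. Hmgcs1 and Sqle stay within 1 order of magnitude between tissues and are highest in kidney, while each of the other genes runs from below 1 FPKM to far higher levels, up to 121 FPKM for Npc1l1 in small intestine and 248 FPKM for Lcat in liver.

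Hmgcs1 encodes the cytosolic HMG-CoA synthase, an early enzyme of the pathway. It lies at chr13:119690379-119708260 of GRCm38 on the plus strand. Its FPKM was 67.4 and 38.0 in kidney, 16.5 and 11.2 in liver, 10.7 and 14.5 in lung, and 12.4 and 11.96 in small intestine. Both kidney libraries lay above the other 6, and the values of the other 3 tissues overlapped. The kidney mean of 52.7 ± 20.8 FPKM (SD, n = 2) was 3.79 times the liver mean of 13.9 ± 3.74 FPKM.

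Kidney was called higher than each of the other tissues in Hmgcs1. The log2 difference was 1.82 ± 0.30 (SE) lower in liver than in kidney (limma adjusted p = 0.00221), 1.97 ± 0.30 lower in small intestine (limma adjusted p = 0.00114) and 1.94 ± 0.30 higher in kidney than in lung (limma adjusted p = 0.00073). None of the 3 comparisons without kidney was called, and the difference between liver and lung was 0.12 with a 95% interval of -0.57 to 0.82. After median-of-ratios scaling kidney stayed called above the other 3 tissues, with differences of 1.31, 2.28 and 2.96 in the same order, and liver was also called higher than lung, by 1.65. The uncalled difference of small intestine minus lung was -0.03 as deposited and 0.68 after the scaling. By the exact permutation test of the F ratio over the 105 ways to divide the libraries into 4 pairs, counting divisions with an F at least as large, p was 0.133, where the smallest p possible is 0.00952. In bulk tissue, more cells with the transcript and more transcript per cell cannot be told apart.

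The kidney libraries were the least alike of the 4 pairs. Their Hmgcs1 values differed by 0.81 on the log2(FPKM + 1) scale, where the median absolute difference over all genes was 0.30 in kidney and between 0.14 and 0.18 in the other tissues. After median-of-ratios scaling, with kidney size factors of 1.03 and 0.719, the 2 Hmgcs1 values were 65.4 and 52.8, and their SD 8.93 in place of 20.8. Hmgcs1 had 6640 and 3018 reads in the kidney libraries and at least 479 reads elsewhere. The proximal tubule markers did not move together between the same 2 libraries. Their summed FPKM was 16509 and 32590, set by Kap with 15159 and 31666, while Slc34a1 was 987 and 655, Slc5a2 117 and 76.8, Slc22a6 181 and 167, and Lrp2 65.5 and 26.1. Their part in the spread was not tested. An antisense gene, Gm48342, shares 557 bases with the exons of Hmgcs1, which is 12.1% of them, and never exceeded 0.0930 FPKM.

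The 250 bases upstream of Hmgcs1 are shown because this promoter carries the letters read by SREBP and by NF-Y, the factor of CCAAT boxes that acts with SREBP at sterol-regulated promoters. They are from RefSeq, build GRCm38.p6, plus strand, chr13:119690101-119690350. The capitals mark 1 match to the sterol regulatory element TCACNCCAC, starting at position -137 from the RefSeq start, and 3 matches to CCAAT on the minus strand, which read ATTGG here.
Hmgcs1 upstream: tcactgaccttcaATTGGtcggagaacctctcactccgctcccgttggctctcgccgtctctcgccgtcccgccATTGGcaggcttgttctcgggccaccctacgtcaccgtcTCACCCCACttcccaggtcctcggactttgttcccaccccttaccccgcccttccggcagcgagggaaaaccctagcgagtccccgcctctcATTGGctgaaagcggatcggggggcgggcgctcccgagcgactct
Both strands were searched in the 250 bases before each start. TCACNCCAC was found in 1.05% of 32851 RefSeq promoters and CCAAT in 33.8%. Of the 21 synthesis genes defined below, 16 matched a RefSeq promoter, of which 15 held CCAAT, against 37.5% of all 27025 genes, and 1, Hmgcs1, held TCACNCCAC. Base composition was not matched, so these shares are descriptions, and a match is not shown to be a bound site.

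Sqle encodes squalene epoxidase, the enzyme that makes the first oxygenated sterol precursor and can limit the flux through the pathway. The gene lies at chr15:59315077-59331192, plus strand. Its FPKM was 11.4 and 7.45 in kidney, 5.33 and 3.67 in liver, 4.95 and 5.99 in lung, and 3.49 and 3.41 in small intestine. Both kidney libraries were again the highest, both small intestine libraries were the lowest, and lung and liver overlapped.

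As deposited, only the difference between small intestine and kidney was called for Sqle, which was 1.20 ± 0.24 (SE) on the log2 scale (limma adjusted p = 0.00483). It was 0.93 and no longer called without kidney replicate 1, the library with the highest value. Liver was 0.91 ± 0.24 below kidney and lung 0.67 ± 0.24 below it, with limma adjusted p of 0.0202 and 0.0381 but differences under 1. The difference of liver to kidney was called under 5 of 15 alternatives, at -1.04 to -1.52, but after median-of-ratios scaling it was -0.46 (limma adjusted p = 0.155), and that of kidney to lung with mitochondrial genes left out, at 1.37. The direction of liver against lung depended on the scaling, being -0.25 for the values as deposited and 1.12, called, after median-of-ratios scaling. After that scaling kidney was also called above lung, by 1.57, and liver above small intestine, by 1.02, while small intestine minus lung went from -0.54 to 0.10, neither called. The exact permutation test of the F ratio gave p = 0.0381.

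Kidney thus held the highest FPKM of both synthesis genes, and Hmgcs1 exceeded Sqle in every library. The ratio of their FPKM, which does not depend on the scaling between libraries, was 5.90 and 5.10 in kidney and between 2.16 and 3.57 in the other 6 libraries.

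**Figure D2:**
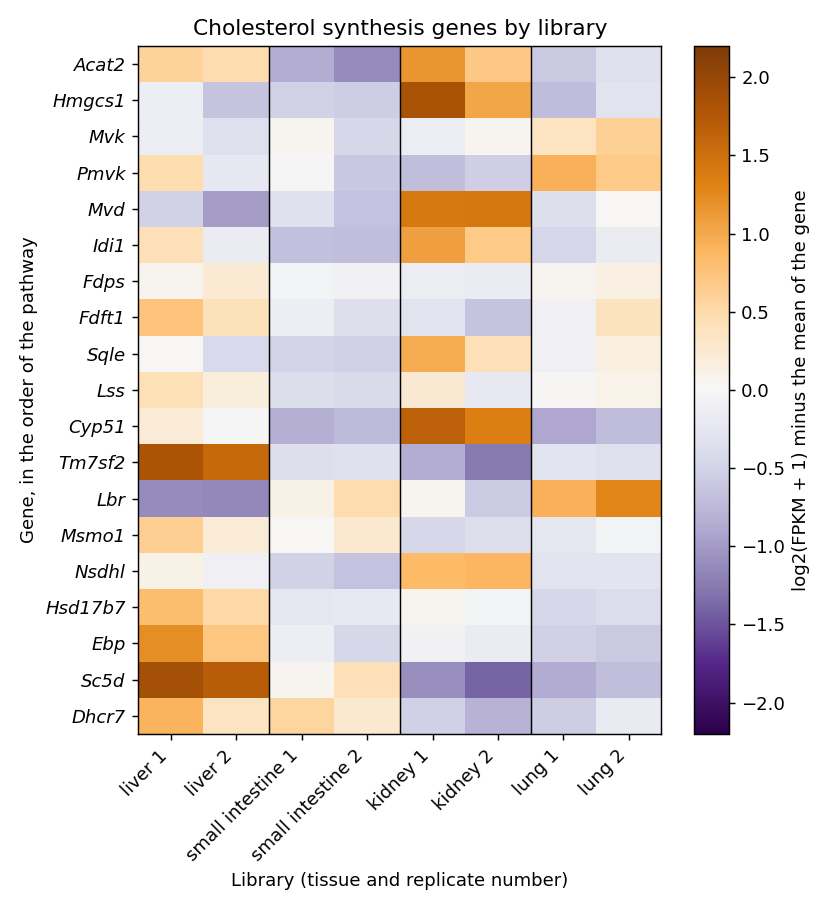
Levels of 19 of the 21 listed cholesterol synthesis genes in the 8 libraries, in the order of the pathway from top to bottom. The colour is log2(FPKM + 1) minus the mean of the gene over the libraries. Brown cells mark, among others, Acat2, Hmgcs1, Mvd, Idi1, Sqle, Cyp51 and Nsdhl in kidney, Tm7sf2, Ebp and Sc5d in liver, and Pmvk and Lbr in lung.

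The synthesis list held 21 enzymes, of which 20 were tested, since Fdps stayed below the filter at no more than 0.368 FPKM. Fdps shares 27.9% of its 31-base words with other genes, and the part of this in its level was not tested. By mean FPKM, 7 of the 20 were highest in kidney (Acat2, Hmgcs1, Mvd, Idi1, Sqle, Cyp51 and Nsdhl), 9 in liver, 1 in small intestine and 3 in lung. Once scaled by median of ratios, the counts were 6 in kidney, 13 in liver, 1 in lung and 0 in small intestine, with Acat2 moving from kidney to liver. The highest tissue was not counted over all tested genes, so these counts describe the list and do not set it apart from other genes. Cyp51, lanosterol demethylase, was 39.4 and 31.5 FPKM in kidney against 13.9 and 11.6 in liver, and Mvd, mevalonate diphosphate decarboxylase, was 23.4 and 23.6 against 5.46 and 3.65. The late enzyme Sc5d went the other way, with 62.6 and 55.7 FPKM in liver against 7.15 and 5.54 in kidney. Acat2, Idi1 and Fdft1 share 43.7%, 27.1% and 31.9% of their 31-base words with other genes, and reads of them may be split between genes.

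Npc1l1 encodes the sterol transporter of the brush border that is the target of the drug ezetimibe. In mice it is known from the small intestine and is nearly absent from liver, unlike in humans. The gene lies at chr11:6211013-6230143 on the minus strand. Its FPKM was 83.0 and 121 in small intestine, 0.0733 and 0.0650 in liver, 0.0418 and 0.103 in kidney, and 0.183 and 0.0901 in lung. The small intestine libraries held 3472 and 6125 reads, and the other 6 libraries between 3 and 8 reads each. Small intestine stood far above the rest, where kidney overlapped with liver and with lung, and both lung values lay above both liver values.

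Small intestine exceeded liver by 6.57 ± 0.21 (SE) in log2(FPKM + 1) of Npc1l1 (limma adjusted p = 2.63e-07), kidney by 6.56 and lung by 6.48, all called. Read counts per unit of depth gave a ratio of 1507 to liver with a counting interval of 692 to 4108, 1498 (857 to 2901) to kidney and 792 (463 to 1488) to lung. These intervals cover counting error only. None of the comparisons among liver, kidney and lung was called, and the difference between liver and kidney was -0.004 with a 95% interval of -0.50 to 0.49. These 3 small differences, from -0.09 to -0.004 as deposited, lay between 0.02 and 0.06 after median-of-ratios scaling. The exact permutation test of the F ratio gave p = 0.0571, with 6 of 105 divisions giving an F at least as large.

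Npc1, the lysosomal cholesterol exporter related to Npc1l1, was 5.75 and 4.91 FPKM in liver, 1.26 and 2.12 in small intestine, 1.10 and 0.619 in kidney, and 6.38 and 6.15 in lung. Lung and liver, not called apart as deposited, differed by 1.20 after median-of-ratios scaling, with liver called higher.

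Abcg5 and Abcg8 encode the subunits of 1 sterol exporter, and loss of either causes sitosterolemia in humans. They lie head to head, Abcg5 at chr17:84658234-84683011 on the minus strand and Abcg8 at chr17:84676302-84700333 on the plus strand, with 1 annotated Abcg8 transcript starting within Abcg5. The 109 bases between the start of Abcg5 and the main start of Abcg8, chr17:84683012-84683120 of GRCm38.p6 on the plus strand, are shown because both genes share them as promoter sequence. The capitals mark 2 matches to GATAA on the minus strand, which read TTATC here, at bases 17 and 47 of the segment.
Abcg5-Abcg8 between: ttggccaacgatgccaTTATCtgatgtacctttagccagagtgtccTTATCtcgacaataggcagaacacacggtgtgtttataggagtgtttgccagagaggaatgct
GATAA was found on either strand in 9.36% of RefSeq promoters over a window of the same 109 bases before the start.

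The FPKM of Abcg5 was 66.6 and 102 in small intestine, 20.8 and 23.0 in liver, 0.0516 and 0.107 in kidney, and 0.378 and 0.148 in lung. That of Abcg8 was 38.3 and 51.4 in small intestine, 19.3 and 16.9 in liver, 0.0746 and 0.108 in kidney, and 0.273 and 0.0429 in lung. Both genes stood in the order small intestine, liver and then the other 2 tissues, with no overlap between the first 2 and none with the rest. Kidney and lung libraries held 2 to 10 reads of either gene.

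Small intestine exceeded liver by 1.87 ± 0.23 (SE) on the log2 scale for Abcg5 (limma adjusted p = 0.0003) and by 1.25 ± 0.20 for Abcg8 (limma adjusted p = 0.00137). For Abcg8 this call depended on the scaling. Scaled by median of ratios, the values were 34.7 and 49.0 in small intestine and 34.9 and 26.9 in liver, which overlap, and the difference of 0.42 was not called, while that of Abcg5 was 1.03 and called. Liver exceeded kidney by 4.41 in Abcg5 and 4.12 in Abcg8, and lung by 4.19 and 4.05, all called. Kidney and lung were not called apart, with 95% intervals of -0.76 to 0.31 for Abcg5 and -0.56 to 0.40 for Abcg8, whose difference was -0.08 as deposited and 0.03 after the scaling. The exact permutation test of the F ratio gave p = 0.00952 for Abcg5, the smallest possible, and p = 0.0286 for Abcg8.

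The 2 subunit genes did not stand in the same ratio in both excreting tissues. Abcg5 over Abcg8 was 1.74 and 1.99 in small intestine but 1.08 and 1.37 in liver, so that both intestinal ratios lay above both hepatic ones; with 2 libraries per tissue no exact test of this can reach 0.05, and none was run. The exons of the genes overlap by 82 bases, 3.02% of those of Abcg5, and whether reads were counted by strand is not given in the sources used here. Abca1, which exports cholesterol to apolipoprotein A-I, was 5.35 and 7.25 FPKM in liver, 0.866 and 4.24 in small intestine, 1.76 and 0.585 in kidney, and 5.96 and 7.55 in lung. Lung and liver were not called apart (-0.09 for liver minus lung), and after median-of-ratios scaling liver was called above lung by 1.33 and above small intestine by 1.95.

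**Figure D3:**
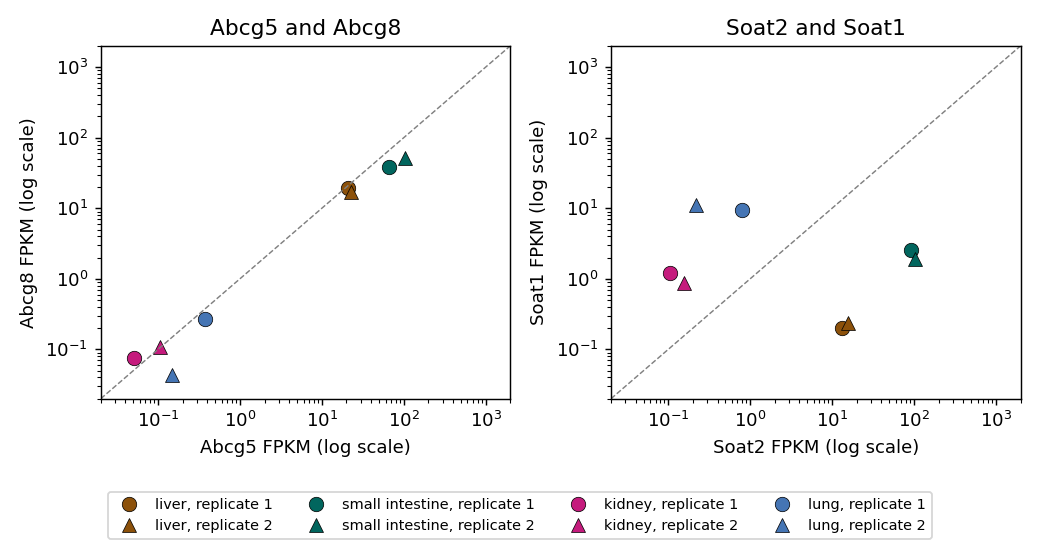
FPKM of 2 gene pairs in each library on log axes, with equal levels along the dashed line; colours are tissues, circles replicate 1 and triangles replicate 2. Abcg5 and Abcg8 lie near the line in liver and small intestine, and Soat2 and Soat1 lie on opposite sides of it in liver and small intestine and in kidney and lung.

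Soat2 encodes ACAT2, the cholesterol acyltransferase of enterocytes and hepatocytes, which makes the esters that go into chylomicrons and very low-density lipoprotein. It lies at chr15:102150526-102163469 on the plus strand. Its FPKM was 91.8 and 104 in small intestine, 13.3 and 15.7 in liver, 0.105 and 0.156 in kidney, and 0.785 and 0.218 in lung. The order was small intestine, liver, lung and kidney, with no overlap between neighbours as deposited; after median-of-ratios scaling lung (0.432 and 0.115) and kidney (0.102 and 0.217) overlapped.

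Small intestine exceeded liver in Soat2 by 2.67 ± 0.22 (SE) on the log2 scale (limma adjusted p = 3.06e-05), kidney by 6.45 and lung by 6.06, and liver exceeded kidney by 3.77 and lung by 3.39, all called. After median-of-ratios scaling small intestine stayed above liver, by 1.85. Kidney was 0.38 below lung, with a 95% interval from 0.89 below to 0.12 above, and not called. This difference was 0.13 after median-of-ratios scaling, not called, and 1.21, called, with a pseudocount of 0.1 in place of 1. The exact permutation test of the F ratio gave p = 0.00952, the smallest possible.

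Soat1, the paralog found in most cells and high in macrophages, had another order. Its FPKM was 0.201 and 0.237 in liver, 2.55 and 1.89 in small intestine, 1.21 and 0.867 in kidney, and 9.48 and 11.3 in lung. In liver the ratio of Soat2 to Soat1 was 66.2 and 66.0, in small intestine 35.9 and 55.0, in kidney 0.0866 and 0.180 and in lung 0.0828 and 0.0193. Lung also held the highest summed FPKM of 5 macrophage markers, 144 and 117, against between 12.6 and 61.9 in the other libraries. Their part in the level of Soat1 was not tested.

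In small intestine, Npc1l1, Abcg5, Abcg8 and Soat2 were all higher in replicate 2 than in replicate 1. The summed FPKM of the 6 enterocyte markers was 6438 in replicate 1 and 8073 in replicate 2, set by Fabp2 with 4472 and 6134. Vil1 (381 and 523), Sis (217 and 346) and Lct (127 and 131) were also higher in replicate 2. Alpi (640 and 474) and Apoa4 (601 and 466) were lower in it, so the enterocyte markers did not move together. The 6 pancreatic acinar markers summed to 1807 and 816. The part of either marker set in the spread was not tested.

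Lcat encodes lecithin-cholesterol acyltransferase, the secreted enzyme that forms cholesteryl esters in plasma. It lies at chr8:105939551-105943382 on the minus strand. Its FPKM was 248 and 216 in liver, 2.75 and 3.96 in lung, 0.557 and 0.263 in small intestine, and 0.591 and 0.387 in kidney. Liver stood far above lung, lung above the other 2 tissues, and these overlapped. The reads were 3054 and 2988 in liver, 36 and 66 in lung, 17 and 9 in kidney, and 7 and 4 in small intestine.

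Liver exceeded small intestine by 7.37 ± 0.21 (SE) on the log2 scale of Lcat (limma adjusted p = 1.75e-07), kidney by 7.29 and lung by 5.75. Per unit of depth, liver held 67.5 times the reads of lung, with a counting interval of 55.5 to 82.9. Lung exceeded small intestine by 1.62 and kidney by 1.54, both called, and by 1.02 and 0.84 after median-of-ratios scaling, when only the first was called. Small intestine and kidney were not called apart, with a 95% interval of -0.57 to 0.40. The exact permutation test of the F ratio gave p = 0.0190.

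**Figure D4:**
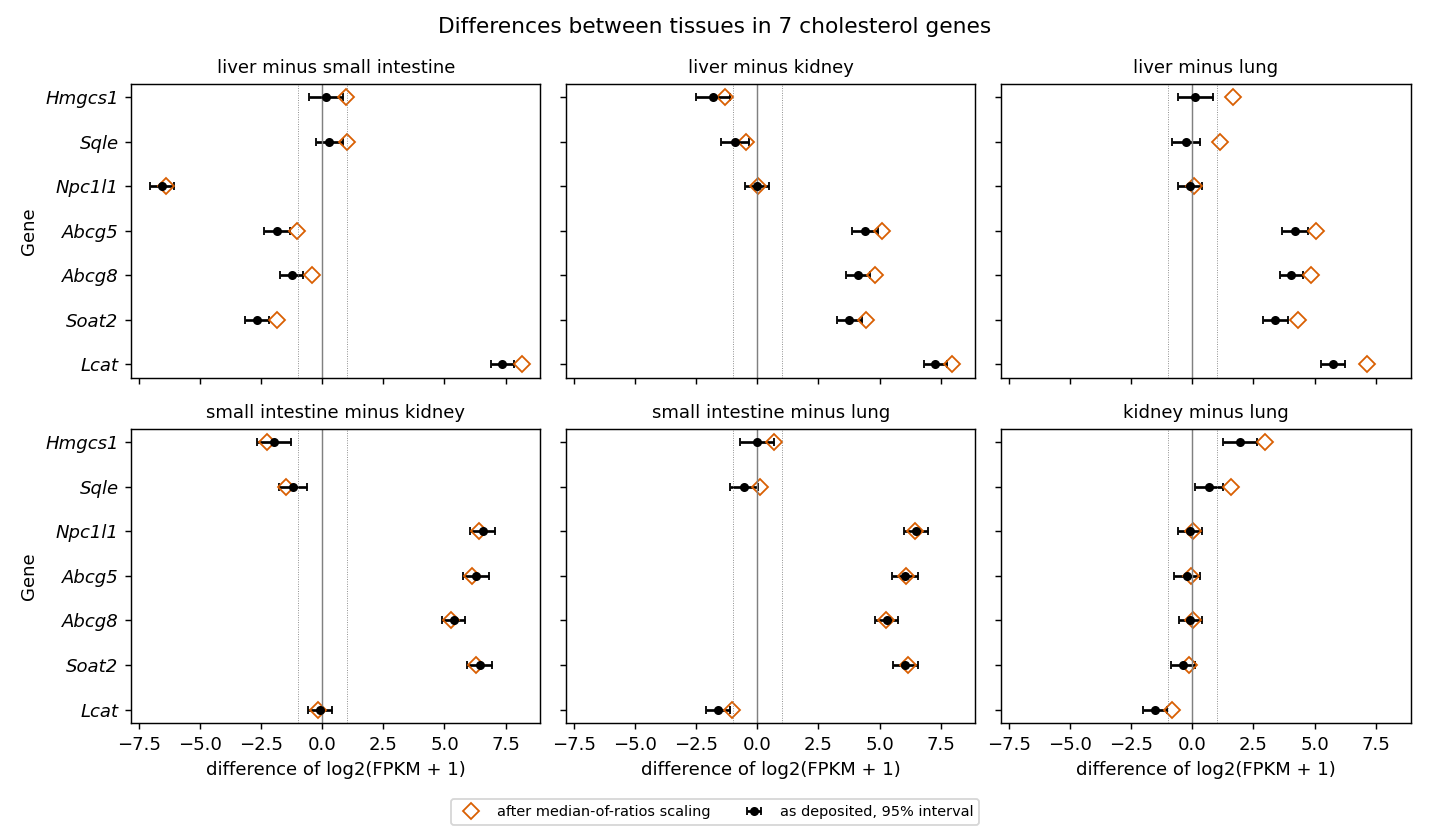
Differences of log2(FPKM + 1) between each 2 tissues for the 7 genes, the tissue named first minus the one named second; black points with bars are the deposited values with 95% intervals from limma, open diamonds the values after median-of-ratios scaling, and dotted lines mark a difference of 1. The diamonds for liver minus lung lie to the right of the points, as from 0.12 to 1.65 for Hmgcs1, and that of Sqle crosses 0.

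The members were then counted in each comparison beside 56 genes of 5 cholesterol lists, which include them: 21 synthesis enzymes, 10 uptake genes, 4 exporters, 9 genes of esterification and lipoproteins and 12 regulators. Of these, 55 passed the filter. The lists and their counts describe these libraries, and the 6 comparisons share their tissues.

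Between liver and small intestine, 1 member was called higher in liver (Lcat) and 4 in small intestine (Npc1l1, Abcg5, Abcg8 and Soat2), where 7.89% and 28.3% of all genes tested were called in these directions. Of the list genes, 15 were higher in liver and 9 in small intestine. They were 5 of 20 synthesis enzymes, 4 of 10 uptake genes, 0 of 4 exporters, 2 of 9 genes of esterification and lipoproteins and 4 of 12 regulators on the liver side, and 1, 1, 2, 3 and 2 of the same lists on the intestinal side. Beside Lcat, the hepatic lipase gene Lipc led the liver side at 81.3 ± 11.7 against 0.243 ± 0.0628 FPKM. Mttp, which loads lipid onto apolipoprotein B, followed Npc1l1 on the intestinal side at 275 ± 22.1 against 26.7 ± 0.545 FPKM. The median difference was 0.55 over the list genes and -0.50 over all genes. After median-of-ratios scaling 35 list genes were called higher in liver and 6 in the gut, with 14% and 15.8% of all genes. Sqle then joined the members called higher in liver, and Abcg8 was no longer called.

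Between liver and kidney, 4 members were called higher in liver (Abcg5, Abcg8, Soat2 and Lcat) and 1 in kidney (Hmgcs1), with 6.9% and 16.2% of all genes. Of the list genes, 25 were higher in liver and 4 in kidney, the 4 being Hmgcs1, Mvd, Cyp51 and the cholesteryl ester hydrolase gene Nceh1. This count of 4 was 12 with mitochondrial genes left out, and 7 with a pseudocount of 0.1, with limma-voom on recovered reads or without kidney replicate 2. With mitochondrial genes left out, all genes called in either direction also rose, from 3772 to 7103. The share of all genes called higher in kidney under these settings is not given, so these counts are not set against it. As deposited, the called genes were 5 of 20 synthesis enzymes, 5 of 10 uptake genes, 3 of 4 exporters, 7 of 9 genes of esterification and lipoproteins and 5 of 12 regulators on the liver side, and 3, 0, 0, 1 and 0 of the same lists on the kidney side. Apoa1, the main protein of high-density lipoprotein, was 2872 ± 424 FPKM in liver and 6.47 ± 4.34 in kidney. The median difference was 0.74 over the list and -0.27 over all genes. After median-of-ratios scaling 29 and 3 list genes were called, with 10.6% and 11.4% of all genes, and Cyp51 was no longer among them.

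Between liver and lung, 4 members were called higher in liver (Abcg5, Abcg8, Soat2 and Lcat) and 0 in lung, with 7.21% and 55.5% of all genes. Of the list genes, 18 were higher in liver and 11 in lung. They were 6 of 20 synthesis enzymes, 1 of 10 uptake genes, 2 of 4 exporters, 6 of 9 genes of esterification and lipoproteins and 3 of 12 regulators on the liver side, and 1, 3, 1, 3 and 3 of the same lists on the lung side. Apoa1 and Apob led on the liver side, Apob with 86.5 ± 16.7 against 0.294 ± 0.146 FPKM. On the lung side stood the phospholipid transfer protein gene Pltp, with 133 ± 10.5 against 3.94 ± 1.41 FPKM, and Npc2, the soluble lysosomal sterol carrier, with 115 ± 7.36 against 6.82 ± 0.935. After median-of-ratios scaling 39 list genes were higher in liver and 5 in lung (Lbr, Npc2, Abcg1, Soat1 and Pltp), with 17.9% and 19.4% of all genes, and Hmgcs1 and Sqle joined the members called higher in liver.

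Between small intestine and kidney, 4 members were called higher in small intestine (Npc1l1, Abcg5, Abcg8 and Soat2) and 2 in kidney (Hmgcs1 and Sqle), with 18.8% and 10.7% of all genes. Of the list genes, 14 were higher in small intestine and 10 in kidney. They were 2 of 20 synthesis enzymes, 3 of 10 uptake genes, 2 of 4 exporters, 4 of 9 genes of esterification and lipoproteins and 3 of 12 regulators on the intestinal side, and 8, 1, 0, 1 and 0 of the same lists on the kidney side. The synthesis enzymes were split, with 8 of 20 called higher in kidney, among them Acat2, Hmgcs1, Mvd, Idi1, Sqle, Cyp51 and Nsdhl, and 2 in small intestine (Sc5d and Dhcr7). Their median difference was -0.20, beside 0.18 over all genes. After median-of-ratios scaling the same 8 were called higher in kidney and Sc5d alone in small intestine, with 13.6% and 15% of all genes, and the list counts were 12 and 10.

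Between small intestine and lung, 4 members were called higher in small intestine (Npc1l1, Abcg5, Abcg8 and Soat2) and 1 in lung (Lcat), with 10.1% and 30.6% of all genes. Of the list genes, 9 were higher in small intestine and 13 in lung. They were 1 of 20 synthesis enzymes, 1 of 10 uptake genes, 2 of 4 exporters, 4 of 9 genes of esterification and lipoproteins and 1 of 12 regulators on the intestinal side, and 1, 5, 2, 4 and 1 of the same lists on the lung side. Both exporters to lipoproteins, Abca1 and Abcg1, were on the lung side, and Abcg1 was 9.32 and 9.66 FPKM in lung against at most 0.483 in any other library. After median-of-ratios scaling 12 and 8 list genes were called, with 15.8% and 15% of all genes, and Abca1 was no longer called.

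Between kidney and lung, 1 member was called higher in kidney (Hmgcs1) and 1 in lung (Lcat), with 8.87% and 41.4% of all genes. Of the list genes, 11 were higher in kidney and 17 in lung. They were 7 of 20 synthesis enzymes, 2 of 10 uptake genes, 0 of 4 exporters, 2 of 9 genes of esterification and lipoproteins and 0 of 12 regulators on the kidney side, and 2, 7, 2, 3 and 3 of the same lists on the lung side. On the kidney side, 7 of the 11 were synthesis enzymes, among them Cyp51 at 35.4 ± 5.63 against 6.35 ± 0.683 FPKM. After median-of-ratios scaling 15 list genes were higher in kidney, 10 of them synthesis enzymes, and 7 in lung, with 16.8% and 17.3% of all genes. Sqle was then called higher in kidney and Lcat no longer in lung.

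**Figure D5:**
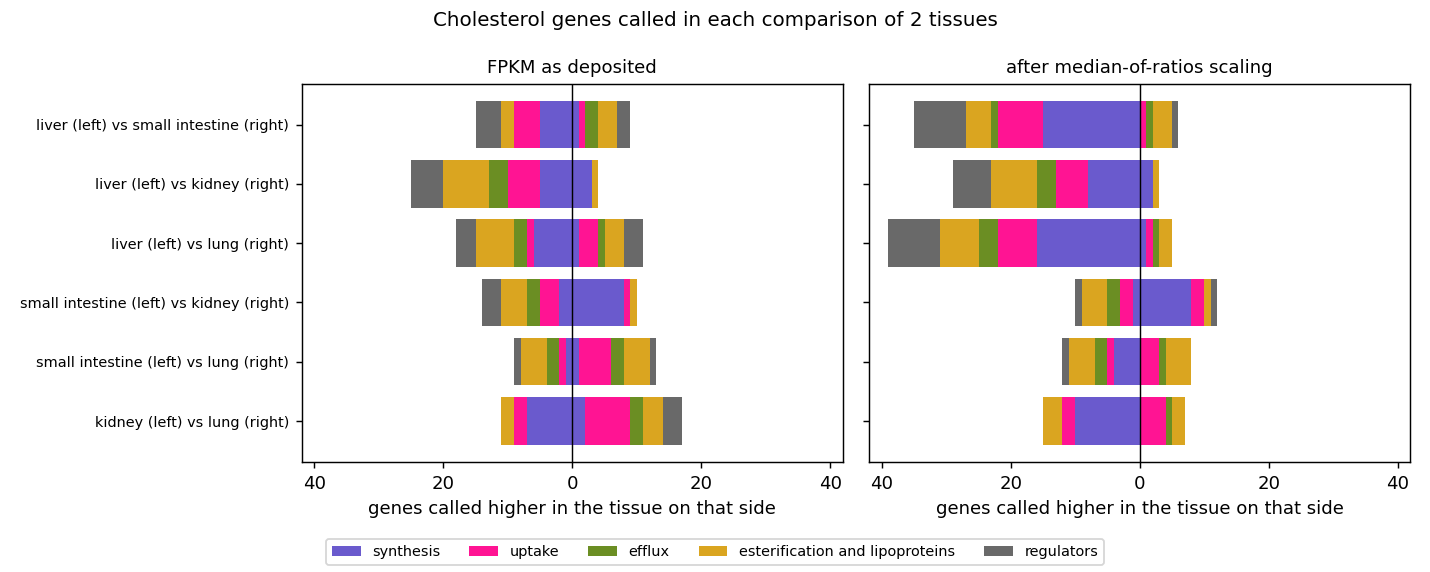
Number of cholesterol genes called in each of the 6 comparisons, drawn to the left for the tissue named first and to the right for the tissue named second, for the deposited FPKM and after median-of-ratios scaling; colours are the 5 lists. The scaling raises the genes called higher in liver from 15 to 35 against small intestine and from 18 to 39 against lung.

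Among the regulators, Srebf2, the gene of SREBP-2, was 18.1 and 23.4 FPKM in lung, 9.06 and 9.63 in small intestine, 9.29 and 5.48 in kidney, and 4.57 and 3.73 in liver. Its order was not that of Hmgcs1 or Sqle, and kidney overlapped with small intestine. Lung was called above liver by 2.07 for the deposited values, and by 0.59, not called, after median-of-ratios scaling. Insig1 and Insig2, which hold SREBP back in the endoplasmic reticulum, were highest in liver, at 40.9 ± 0.792 and 74.5 ± 4.24 FPKM. Nr5a2, a nuclear receptor of liver and gut known for bile acid genes, was 6.84 and 6.86 FPKM in liver, 2.61 and 3.34 in small intestine, and at most 0.104 in the other 4 libraries. Its motif CAAGGNCA, searched on both strands, occurs once in the 250 bases before Npc1l1, as in 5.53% of RefSeq promoters.

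The genes closest in pattern were taken as the 3 with the highest Pearson correlation of log2(FPKM + 1) over the 8 libraries, which are 4 pairs and not 8 independent points. For Hmgcs1 these included Nnt and Slc4a9 (r of 0.985 and 0.982), and for Sqle Iars2 and Cadm4 (0.959 and 0.955). For Npc1l1 they were Ptprh, Mgam2-ps and Gcg, each with r = 0.9998. Abcg5 and Abcg8 were among the 3 closest to each other, with r = 0.997, beside Cyp4f14 for both, Xkr9 for Abcg5 and Creb3l3 for Abcg8. For Soat2 they were Cyp3a13, Gstm3 and Aldh1b1 (0.997, 0.997 and 0.996), and for Lcat Hfe2, Serpina7 and Serpina3m (0.999, 0.998 and 0.998). Among the 7 genes, Hmgcs1 and Sqle had r = 0.914, Abcg5 and Soat2 0.991, and Abcg8 and Soat2 0.982, while Lcat had at most 0.301 with any other.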

How the data were processed

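Polyadenylated RNA of 4 tissues, 2 libraries each, was sequenced. By the methods and the submitters' processing notes, the authors selected reads by index with bbduk, mapped them to the Ensembl mouse genome with STAR 2.5.3a and deposited FPKM made with DESeq2. The counting program, strand setting and handling of multiply mapped reads are not given in the sources used here. Tissue and replicate number came from the sample labels, and 0 columns of values were without a sample.

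FPKM multiplied by GENCODE M21 exon length gave reads, of which 94.5% to 96.1% per library, for values up to 50 reads, were whole within 0.02 reads; 51847 genes matched. Soat2 did not give whole numbers with this length, so its reads are approximate. A floor of 3 reads per library and the counting intervals (95%, exact) cover counting error only. Values as log2(FPKM + 1) were tested with limma 3.58.1 (R 4.3.3, lmFit and eBayes with a trend), with Benjamini-Hochberg adjustment over 16328 genes. The fit was also run on simulated counts in which few genes differed, in liver alone. Those counts held no shift between tissues like that of the real libraries, so that run does not bear on calls that move with the scaling. Python 3.11.15, numpy 2.4.6, pandas 2.3.3, scipy 1.17.1 and matplotlib 3.10.9 did the rest. The limma p-values rest on a spread between the 2 libraries of a tissue that is pooled over the 4 tissues and moderated across genes. They do not rest on the spread of the compared tissues alone.

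The members, lists, tests and motifs were chosen with earlier results of these data known. Named genes were the 7 members, partners such as Soat1, Npc1, Srebf2 and Abca1, the 2 called list genes with the largest difference in each direction and a mean of at least 5 FPKM, and the 3 genes closest to each member; other list genes were named after their values were seen. Results of some genes that this rule names are not reported here. Promoters are from RefSeq, which held 5 of the 7 members, all but Sqle and Soat2. The labels do not say that a replicate number marks a mouse, so no pairing was used. Adipocyte markers, also listed, summed to 113 and 64.5 FPKM in lung, 20.9 and 19.2 in small intestine and at most 1.75 elsewhere. The lung sum was mostly Cfd (103 and 59.0), with Adipoq at 8.90 and 5.19, Plin1 at 0.507 and 0.260 and Lep at 0 and 0.0240. The adrenal marker sum was at most 2.07.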

Additional observations from a re-analysis of the deposited data

How the results depend on the processing

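Of the 42 differences of the 7 genes, each refitted under 15 alternatives (630 values), 616 stayed on their side of the threshold, 10 came to pass it, 3 no longer passed it and 1 changed sign to a call; differences that changed sign without a call on either side are among the 616. The change of sign to a call was Sqle in liver against lung, at 1.12 after median-of-ratios scaling. Calls lost were Abcg8 in liver against small intestine (-0.42) and Lcat in kidney against lung (-0.84) under that scaling, and Sqle in small intestine against kidney without kidney replicate 1 (-0.93). The call of Sqle in liver against kidney was gained with a pseudocount of 0.1 (-1.04), with mitochondrial genes left out (-1.52), with limma-voom on recovered reads (-1.08), without liver replicate 1 (-1.13) and without kidney replicate 2 (-1.19), while median-of-ratios scaling brought it down to -0.46. No filter on low values, no trend and the replicate block changed no member call; with the replicate block, Hmgcs1 differed by -1.82 with an SE of 0.29 and a limma adjusted p of 0.00323 between liver and kidney. Libraries with the same number did not deviate together over all genes (correlations of -0.22 to 0.05 between tissues), and the block moved the genes called between liver and kidney from 3772 to 3766.

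Counts moved more. Genes called between liver and lung fell from 10236 to 6078 after median-of-ratios scaling, and those between liver and kidney rose from 3772 to 7103 with mitochondrial genes left out. Under median-of-ratios scaling the list genes called were 35 in liver against small intestine (15 as deposited), 39 in liver against lung (18), 5 in lung against liver (11), 8 in lung against small intestine (13) and 7 in lung against kidney (17, and 11 with mitochondrial genes left out). The 4 list genes called higher in kidney than in liver became 7 with a pseudocount of 0.1, 7 with limma-voom, 12 with mitochondrial genes left out, and 4 to 7 when 1 library was left out, 7 being without kidney replicate 2. The cause of these changes was not tested. Depth limits the comparisons among tissues where Npc1l1, Abcg5, Abcg8 or Soat2 held few reads.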

Other observations

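Lung, where few of the 7 genes were high, held the highest FPKM of the intracellular sterol carrier Npc2, of Pltp and of Abcg1, the exporter of macrophages. Npc2 was 120.5 and 110.1 FPKM in lung and between 6.16 and 13.5 elsewhere, Pltp 126 and 141 against between 0.970 and 4.94, and Abcg1 9.32 and 9.66 against between 0.289 and 0.483. These 3 genes stayed called higher in lung in all 3 comparisons with lung after median-of-ratios scaling. The alveolar type 2 markers summed to 16391 and 14206 FPKM and the macrophage markers to 144 and 117 in the same libraries, and their part in these levels was not tested.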
